A study of Macaca mulatta with 24 samples.

Results

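The TGF-beta pathway members examined here were the ligand TGFB1, the receptors TGFBR1, TGFBR2 and TGFBR3, the transducers SMAD2, SMAD3 and SMAD4, the inhibitory SMAD7, and the repressors SKI and SKIL. They were chosen by name, as every non-control probe whose gene name in the scanner files is one of these 10 symbols (of 33825 names in those files), which gave 19 probes of the 43603 on the array. Of the 19 probes, 16 were well above the local background on at least 4 of the 24 arrays and were tested, and they covered 9 of the 10 genes. The probe for SMAD7 and 2 of the 3 probes for SKIL did not reach that level.

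The arrays measured whole blood RNA, depleted of globin transcripts, from rhesus macaques (Macaca mulatta) of both sexes and adult age that received a dose of 4 Gy to the whole body. There were 7 arrays from before irradiation (dose 0 Gy), 4 from day 3, 6 from day 5 and 7 from day 7, and a replicate number stands for the same animal in every group. Animals 1, 2, 4 and 7 were measured at day 3, and all but animal 5 at day 5. The labels name X-rays as the radiation and place the control at day 0, while the study's methods name a cobalt gamma source and a control sample drawn some days before exposure; there was no group of sham-irradiated animals on the arrays. Levels are log2 signals after scaling each array to the median array, so 1 unit is a doubling, and levels of different probes cannot be set against each other.

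TGF-beta is secreted as a latent complex and must be released before it binds its receptors. The type II receptor TGFBR2 then phosphorylates the type I receptor TGFBR1, while TGFBR3 (betaglycan) presents the ligand without a kinase of its own. The activated type I receptor phosphorylates SMAD2 and SMAD3, which enter the nucleus with SMAD4 and bind target genes, SMAD7 blocks that step at the receptor, and SKI and SKIL hold SMAD-bound genes in a repressed state. In blood the ligand is stored in platelets and made by many leukocytes, and it restrains T cells, NK cells and the cycling of stem cells.

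The probes that the results turn on are given here, because probes of 1 gene moved differently and a reader needs to see which stretch each one reads. Coordinates are those of the file headers (build rheMac2), upstream and downstream refer to the direction of transcription, and each probe is written 5′ to 3′. The first 30 bases are given except for 1 SMAD2 probe, which is given whole because it ends on a TAA triplet, printed in capitals. The headers give a position within a transcript but no coding bounds, so whether the other probes lie in coding sequence or a UTR was not determined here.
TGFB1 upstream probe A_01_P1695251 (chr19:47746118-47746177, minus strand): taccagatctcgcccatctaggttatttcc
TGFB1 downstream probe A_01_P000702 (chr19:47723731-47723790, minus strand): cgctgccttgcccttgggggctgtatttaa
TGFBR2 upstream probe A_01_P1759366 (chr2:173111771-173111830, plus strand): tacaacaccagcaatcctgacttgttgcta
TGFBR2 downstream probe A_01_P1759361 (chr2:173114303-173114362, plus strand): tccaggatgaatttggagaatgtagagtcc
TGFBR3 upstream probe A_01_P009623 (chr1:94674693-94674752, minus strand): ccttacttctcttgccttaaatatatccca
TGFBR3 downstream probe A_01_P1789826 (chr1:94672996-94673055, minus strand): agattgtaaatccatttcttgcgtgtgttc
SMAD2 upstream probe A_01_P1707461 (chr18:40879385-40879444, minus strand): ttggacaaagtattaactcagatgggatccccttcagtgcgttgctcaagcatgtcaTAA
SMAD2 middle probe A_01_P1674226 (chr18:40878928-40878987, minus strand): gatctaggcaaacctttataaagttacagt
SMAD2 downstream probe A_01_P001362 (chr18:40875776-40875835, minus strand): tttaccttaagccacattcagttttgcttg
SMAD3 upstream probe A_01_P1685946 (chr7:45762251-45762310, plus strand): ctccagattctgatgcatacggctatattg
SMAD3 downstream probe A_01_P1809536 (chr7:45763343-45763402, plus strand): acacaaatactccattttggcttctgctag
SKIL tested probe A_01_P1802041 (chr2:116632054-116632113, minus strand): atcccagtttgaaacacacactggcacaat

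The TGFB1 probes start 22387 bases apart in the genome and are annotated to different transcripts. Counted along a shared transcript, the TGFBR3 probes start 1697 bases apart, the SMAD3 probes 1092 and the TGFBR2 probes 837. In the genome, the downstream SMAD2 probe starts 3609 bases beyond the one that ends on TAA.

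Each day was compared with pre-irradiation by limma over all tested probes, and a probe was called at a Benjamini-Hochberg adjusted p under 0.005. At day 3, 1 of the 16 member probes was called and it was higher; over the whole array 13.5% of tested probes were called, 5.45% higher and 8.05% lower. At day 5, 4 of 16 were called, 3 higher and 1 lower, beside 16.7% of all tested probes (7.16% higher and 9.59% lower). At day 7, 2 of 16 were called and both were higher, beside 10.9% of all tested probes (3.6% higher and 7.28% lower). These shares of 6.25%, 25% and 12.5% of the members lay around those of the array at large. At an adjusted p under 0.05, 7, 9 and 5 of the 16 passed on days 3, 5 and 7, beside 35.8%, 35.5% and 27.7% of all tested probes. The called genes were TGFB1 at days 3 and 5, SMAD2, SMAD3 and SKIL at day 5 and TGFBR3 at day 7. The median log2 change of the 16 probes on days 3, 5 and 7 was 0.12, 0.31 and 0.22, where the median over all tested probes was 0.01, 0.02 and 0.02. The scaling of the arrays, done over all tested probes, holds that second median close to no change. The 3 comparisons share the same pre-irradiation arrays.

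**Figure D1:**
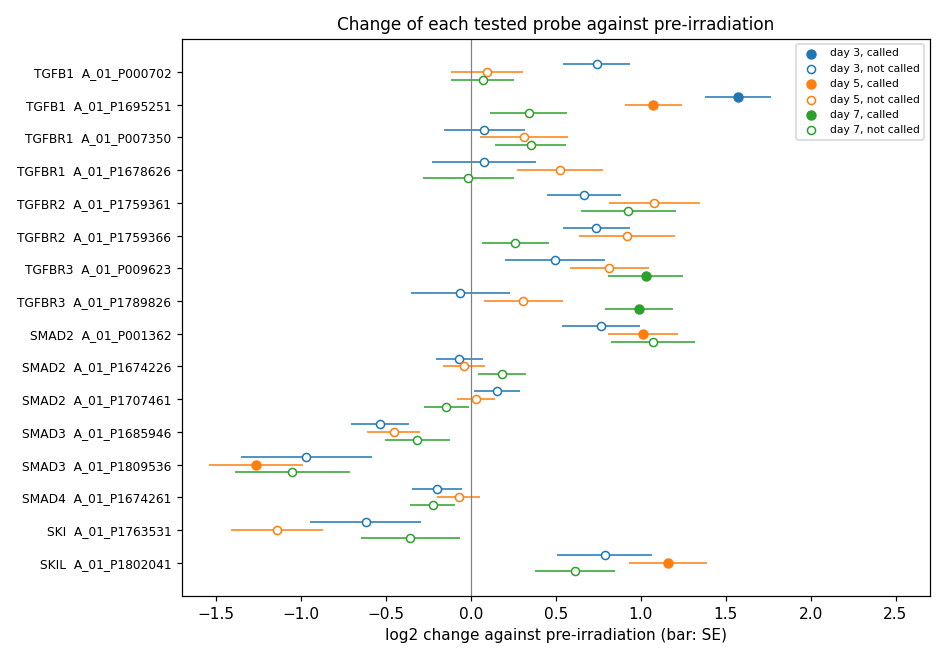
Log2 change of each of the 16 tested probes against pre-irradiation (horizontal axis, with its standard error as a bar) at day 3, day 5 and day 7; filled points were called at an adjusted p under 0.005. The upstream TGFB1 probe has the largest rise, 1.57 at day 3, and the lowest value is -1.26 for the downstream SMAD3 probe at day 5, which is well above background on 3 of 6 arrays and becomes 0.13 with normexp background correction.

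TGFB1, the ligand, rose at days 3 and 5 on its upstream probe. Before irradiation its level ran from 7.28 to 8.17 with a median of 7.60. The 4 animals measured at day 3 stood at 9.11, 9.24, 9.43 and 9.22, and the day 5 arrays ran from 8.50 to 8.91 with a median of 8.80. Every array of days 3 and 5 was above every pre-irradiation array, and the groups did not overlap. The log2 change was 1.57 ± 0.20 (SE, 4 against 7 arrays), a 2.97-fold rise, at day 3 (limma adjusted p = 0.000263) and 1.07 ± 0.17, or 2.11-fold, at day 5 (limma adjusted p = 0.000298). At day 7 the probe ran from 7.27 to 8.73 with a median of 8.10, which overlapped the pre-irradiation range, and the change of 0.34 ± 0.23 was not called (limma adjusted p = 0.28). All 7 day 7 arrays were below all 4 day 3 arrays, with a difference of -1.23 ± 0.26 (limma adjusted p = 0.0114), which missed the threshold.

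The downstream TGFB1 probe was higher in all 4 animals at day 3, where it read 15.38, 15.45, 15.05 and 14.86 against 13.99 to 14.86 before irradiation. Its change of 0.74 ± 0.20, or 1.67-fold, was not called (limma adjusted p = 0.0134), and the changes of 0.10 at day 5 and 0.07 at day 7 were within the spread between animals. The upstream probe moved further than the downstream one within the same arrays, by 0.83 ± 0.23 at day 3 and 0.98 ± 0.21 at day 5. A two-sided exact permutation test of that within-array difference gave p = 0.0182 and p = 0.0035, or 0.0397 and 0.0163 after Benjamini-Hochberg adjustment over the 24 such tests (8 pairs of probes of 1 gene at 3 days). These tests were chosen after the values were seen, and the scaling of an array cancels in them. The difference was positive in 4 of 4 animals at day 3 and in 6 of 6 at day 5. For days 3 and 5 these tests, like the calls, set arrays of 1 scan session mostly against arrays of the other.

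When the animal was entered as a block, the day 3 rise of the upstream TGFB1 probe was 1.36 with an adjusted p of 0.00783, so the call was lost, while the day 5 call held. The files record 2 scan sessions: session 1 held 6 pre-irradiation and 6 day 7 arrays, and session 2 held 1 pre-irradiation array (animal 5), all arrays of days 3 and 5, and 1 day 7 array. For days 3 and 5 the session and the day can thus be told apart only through 1 control array, and none of the calls at these days held with the session as a block. For upstream TGFB1 the change with that block was 1.95 at day 3 (limma adjusted p = 0.0151) and 1.46 at day 5 (limma adjusted p = 0.0141). Within session 2 alone, the changes against that single array were the same sizes with adjusted p of 0.0691 and 0.0336.

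Markers of platelets, which store the ligand, moved over the same days. All 9 platelet markers tested were called higher at day 3, 2 of 9 at day 5 and 0 of 9 at day 7, with a median change of 2.95, 1.07 and 0.15 on the log2 scale. The mean level of the list lay between 8.79 and 10.07 before irradiation. It lay between 11.86 and 12.81 at day 3, between 10.04 and 11.17 at day 5, and between 9.16 and 10.75 at day 7. GP1BA and ITGB3, surface proteins of platelets, were well above background on 0 of 7 pre-irradiation arrays and on 4 of 4 day 3 arrays. These are RNA levels relative to the rest of each array and do not count platelets. In the paper's blood counts, platelets started to fall on day 9. The part of the platelet markers in the TGFB1 result was not tested.

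**Figure D2:**
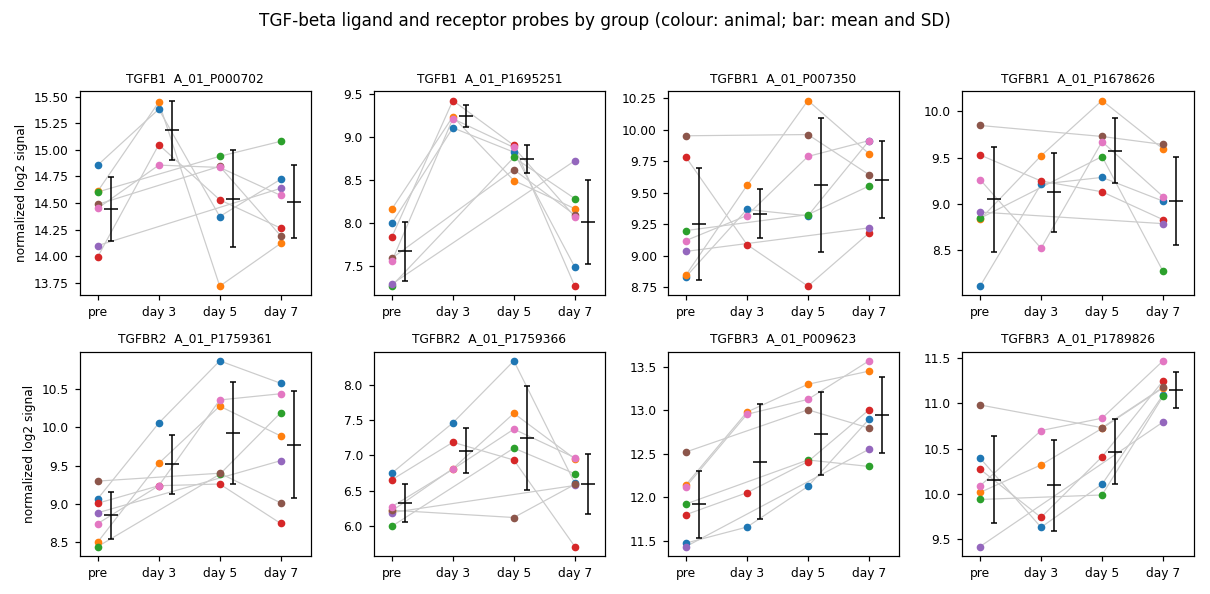
Normalized log2 signal (vertical axis, a separate scale in each panel) of the 8 TGFB1, TGFBR1, TGFBR2 and TGFBR3 probes in the 4 groups of arrays; each colour is 1 animal, grey lines join its arrays, and black bars give mean and SD. For the upstream TGFB1 probe the day 3 and day 5 arrays sit above all 7 pre-irradiation arrays, and both TGFBR3 probes are higher at day 7 than before irradiation in 7 of 7 animals.

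TGFBR3, the co-receptor, rose at day 7 on both probes. The upstream probe ran from 11.44 to 12.52 before irradiation with a median of 11.92, and from 12.36 to 13.57 at day 7 with a median of 12.90. The downstream probe ran from 9.42 to 10.98 with a median of 10.09 before irradiation and from 10.79 to 11.47 with a median of 11.17 at day 7. On each probe 6 of 7 day 7 arrays were above every pre-irradiation array, so the groups overlapped by a single array. The rise was 1.03 ± 0.22, or 2.04-fold, on the upstream probe (limma adjusted p = 0.00347) and 0.99 ± 0.20, or 1.99-fold, on the downstream one (limma adjusted p = 0.00237), and all 7 animals were higher on both.

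The 2 TGFBR3 probes did not move alike at the earlier days. The upstream probe read 11.66, 12.98, 12.05 and 12.96 at day 3 and had a median of 12.72 at day 5, with changes of 0.49 ± 0.29 and 0.81 ± 0.23 that were not called. The downstream probe read 9.63, 10.32, 9.74 and 10.70 at day 3 and had a median of 10.57 at day 5, with changes of -0.06 ± 0.29 and 0.31 ± 0.23. With the scan session as a block, which rests on 1 pre-irradiation array, its day 3 change became 0.68. The difference between the 2 probes was not tested with that block. Within arrays the upstream probe moved further by 0.55 ± 0.20 at day 3 and 0.51 ± 0.17 at day 5 (exact permutation test, adjusted p = 0.0397 and 0.0385), while at day 7 the difference was 0.04 (adjusted p = 0.88). On the downstream probe all 7 day 7 arrays lay above all 4 day 3 arrays, by 1.05 ± 0.23, which missed the threshold (limma adjusted p = 0.0128).

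The day 7 rise could be examined within scan session 1, with 6 arrays in each group. There the change was 1.01 on the upstream probe, which lost its call (limma adjusted p = 0.00843), and 0.93 on the downstream probe, which kept it (limma adjusted p = 0.00397). Both calls were sensitive to single animals: the upstream one was lost without animal 1, 2, 4, 5 or 7 (adjusted p up to 0.0168) and the downstream one without animal 1, 2, 3, 4 or 7 (adjusted p up to 0.0132). Leaving out animal 5 gives the same fit as staying within session 1, so these 2 settings are 1 check. NK and T cells are known to carry TGFBR3 transcripts. None of the 10 NK cell markers tested was called at day 7, and their mean level ran from 11.27 to 12.09 before irradiation and from 11.38 to 12.08 at day 7. None of the 11 T cell markers was called either, and their mean level ran from 11.47 to 12.02 and from 11.62 to 12.09. These marker levels are relative to the other RNA of the same array and do not count cells. In the paper's blood counts, lymphocytes of the irradiated animals dropped soon after exposure and were at their lowest by day 7. On arrays of bulk blood, fewer cells of a type and less RNA per cell cannot be told apart, and the same holds for more of either.

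TGFBR2, the type II receptor, was higher on both probes after irradiation but was called on neither. The downstream probe had a median of 8.88 before irradiation (8.44 to 9.30), stood at 10.06, 9.53, 9.24 and 9.24 at day 3, and had medians of 9.84 at day 5 (9.26 to 10.87) and 9.89 at day 7 (8.74 to 10.58). All 4 animals at day 3, 6 of 6 at day 5 and 5 of 7 at day 7 were above their own pre-irradiation value, although the ranges overlapped on each day. The changes were 0.67 ± 0.22, 1.08 ± 0.27 and 0.93 ± 0.28 (limma adjusted p = 0.0322, 0.0067 and 0.0225). The upstream probe changed by 0.74 ± 0.20, 0.92 ± 0.28 and 0.26 ± 0.20 (limma adjusted p = 0.0126, 0.0214 and 0.347), and its 4 day 3 arrays lay above all 7 pre-irradiation arrays. At day 7 the downstream probe was the further raised of the pair by 0.66 ± 0.22 (exact permutation test, adjusted p = 0.0385), and within scan session 1 that difference was 0.73 (exact p = 0.0281).

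TGFBR1, the type I receptor and the kinase that acts on SMAD2 and SMAD3, showed no called change. Its upstream probe (A_01_P1678626, at chr15:37079651-37079710) had medians of 8.91, 9.23, 9.59 and 9.03 before irradiation and on days 3, 5 and 7, and the downstream probe (A_01_P007350, at chr15:37074870-37074929) had medians of 9.12, 9.34, 9.56 and 9.65. The groups overlapped on every day. The changes ran from -0.01 to 0.53 on the log2 scale over both probes, with limma adjusted p of 0.124 or more.

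SMAD2, 1 of the pair of receptor-activated SMADs, gave different answers by probe. On the downstream probe the pre-irradiation arrays ran from 5.95 to 6.79 with a median of 6.27, the day 3 arrays read 6.77, 7.54, 7.49 and 6.79, the day 5 arrays ran from 6.85 to 7.98 with a median of 7.39, and the day 7 arrays from 6.74 to 8.48 with a median of 7.33. All 6 day 5 arrays and 6 of 7 day 7 arrays were above every pre-irradiation array. The changes were 0.77 ± 0.23 (limma adjusted p = 0.0223), 1.01 ± 0.21 (limma adjusted p = 0.00198) and 1.07 ± 0.25 (limma adjusted p = 0.00518), so that only day 5 was called, at 2.02-fold, and day 7 fell just short.

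The upstream and middle SMAD2 probes had small changes, none of them called. The upstream probe, which ends on the TAA triplet, had medians of 11.53, 11.60, 11.49 and 11.28 before irradiation and on days 3, 5 and 7, and the middle probe had medians of 10.35, 10.31, 10.26 and 10.49. Their changes lay between -0.14 and 0.18 with limma adjusted p of 0.361 or more. Within arrays the change of the upstream probe minus that of the downstream one on days 3, 5 and 7 was -0.61 ± 0.28, -0.98 ± 0.23 and -1.21 ± 0.27 (exact permutation test, adjusted p = 0.101, 0.0163 and 0.014), so that day 3 did not pass. The middle probe moved by 0.83 ± 0.27 less at day 3, 1.05 ± 0.21 less at day 5 and 0.89 ± 0.27 less at day 7 (exact permutation test, adjusted p = 0.0397, 0.014 and 0.0163). The upstream and middle probes also moved apart at day 7, by -0.33 ± 0.10 (exact permutation test, adjusted p = 0.0163), and by -0.33 within scan session 1 (exact p = 0.013). In no animal did the upstream or middle probe move further up than the downstream probe at days 5 or 7. Within scan session 1 the day 7 differences were -1.27 and -0.93 (exact p = 0.00216 and 0.00433).

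When the animal was entered as a block, the day 5 change of the downstream SMAD2 probe was 0.94 and its call was lost (limma adjusted p = 0.0155). With the scan session as a block it was 1.44, also without a call (limma adjusted p = 0.0437). Leaving out animal 1, 2, 6 or 7 likewise ended the call, with adjusted p up to 0.0129.

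**Figure D3:**
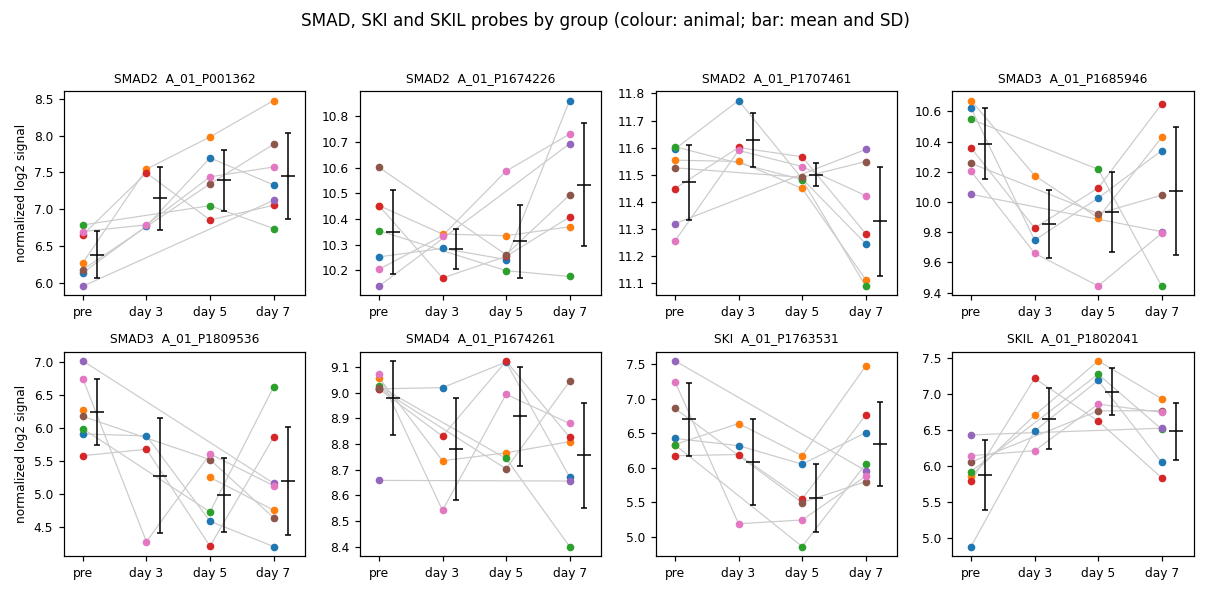
Normalized log2 signal (vertical axis, a separate scale in each panel) of the 8 tested SMAD2, SMAD3, SMAD4, SKI and SKIL probes in the 4 groups of arrays; each colour is 1 animal, grey lines join its arrays, and black bars give mean and SD. The 6 day 5 arrays of the downstream SMAD2 probe A_01_P001362 and of SKIL lie above all 7 pre-irradiation arrays, while the other SMAD2 probes overlap on every day.

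SMAD3, the other receptor-activated SMAD, was lower on both probes, with a call on 1 probe at 1 day. The downstream probe was dim: it ran from 5.58 to 7.02 before irradiation with a median of 6.18, and from 4.20 to 5.61 at day 5 with a median of 4.99. At day 5 all 6 animals were below their own earlier value and 5 of 6 arrays were below every pre-irradiation array. It fell by 1.26 on the log2 scale with an SE of 0.28 (limma adjusted p = 0.0033). Only 3 of the 6 day 5 arrays were well above background there, so the size of the fall is uncertain. At day 3 it read 5.88, 5.68 and 4.27 in animals 1, 4 and 7, the spot of animal 2 being left out as an outlier by the scanner software, and the change was -0.97 ± 0.39 over 3 arrays (limma adjusted p = 0.0723), which became 0.14 when that spot was kept. At day 7 the change was -1.05 ± 0.34 (limma adjusted p = 0.0308). With background correction by normexp instead of the scanner's processed signal, the day 5 value was 0.13 and so turned its direction, and the call was lost without animal 1, 2, 3, 5, 6 or 7 (adjusted p up to 0.0125) and with the scan session as a block (-2.04, limma adjusted p = 0.0281). It was also lost with all 4 groups in 1 fit (limma adjusted p = 0.00891) and with no filter on dim probes (limma adjusted p = 0.00582).

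The brighter upstream SMAD3 probe had a median of 10.36 before irradiation (10.05 to 10.67), read 9.75, 10.18, 9.83 and 9.66 at day 3, and had medians of 9.97 at day 5 and 10.04 at day 7. It was lower than before irradiation in 4 of 4, 6 of 6 and 6 of 7 animals, with overlapping ranges on each day. The changes of -0.53 ± 0.17, -0.45 ± 0.16 and -0.32 ± 0.19 were not called (limma adjusted p = 0.0301, 0.0367 and 0.24). The change of the upstream SMAD3 probe minus that of the downstream one was 0.81 ± 0.41 at day 5, positive in 6 of 6 animals, and 0.74 ± 0.48 at day 7, positive in 6 of 7. The exact permutation test, which leaves out the pairing by animal, was not passed on any day (adjusted p = 0.59, 0.118 and 0.222 on days 3, 5 and 7).

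SMAD4, the common partner of the receptor-activated SMADs, was measured by 1 probe (A_01_P1674261, at chr18:44184381-44184440). Its medians were 9.02, 8.78, 8.88 and 8.81 before irradiation and on days 3, 5 and 7, with all groups overlapping. The changes of -0.20 ± 0.15, -0.07 ± 0.13 and -0.22 ± 0.13 were not called (limma adjusted p = 0.308, 0.696 and 0.224).

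SMAD7, the inhibitory SMAD, was well above background on 1 of 24 arrays. Its probe (A_01_P1707476, at chr18:41998739-41998798) read 7.22 in the pre-irradiation array of animal 4 and 3.02 to 3.55 in the other 6, and no array after irradiation exceeded 3.89. Animal 4 read 3.01, 2.28 and 2.66 at days 3, 5 and 7. No fold is given, since 23 arrays hold only a bound.

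SKIL, a repressor of SMAD-driven transcription, rose at day 5. Its tested probe ran from 4.88 to 6.43 before irradiation with a median of 5.92, read 6.49, 6.71, 7.22 and 6.21 at day 3, and ran from 6.63 to 7.46 at day 5 with a median of 7.03 and from 5.84 to 6.94 at day 7 with a median of 6.53. All 6 day 5 arrays were above every pre-irradiation array, and each animal was higher than before irradiation on every day it was measured. The changes were 0.79 ± 0.28 (limma adjusted p = 0.0453), 1.16 ± 0.23 (limma adjusted p = 0.00163), a 2.24-fold rise, and 0.61 ± 0.24 (limma adjusted p = 0.065). With the scan session as a block the day 5 change was 0.60 (limma adjusted p = 0.448), and without animal 2 or 3 the call was lost (adjusted p up to 0.0094). The 2 other SKIL probes were well above background on 0 and 3 of 24 arrays, none of them before irradiation.

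SKI, the related repressor, was lower at day 5 and just missed the threshold. Its probe (A_01_P1763531, at chr1:5371882-5371941) ran from 6.17 to 7.55 before irradiation with a median of 6.42, read 6.32, 6.64, 6.19 and 5.19 at day 3, and ran from 4.86 to 6.18 at day 5 with a median of 5.52. All 6 animals were lower at day 5 than before irradiation, and 5 of 6 arrays were below every pre-irradiation array. The change was -1.14 ± 0.27 at day 5 (limma adjusted p = 0.00521), and 0.063 with background correction by normexp, beside -0.62 ± 0.33 at day 3 and -0.36 ± 0.29 at day 7 (limma adjusted p = 0.158 and 0.386).

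Between the days after irradiation, 0 of the 16 member probes were called. Over the whole array, 0.0185% of tested probes were called for day 5 against day 3, 1.28% for day 7 against day 3 and 0.00369% for day 7 against day 5. At an unadjusted limma p under 0.05 the members numbered 2, 3 and 5, beside 10.1%, 32.7% and 20.8% of all tested probes. When all 4 groups shared 1 fit, 2 member probes were called for day 7 against day 3, upstream TGFB1 with -1.23 and downstream TGFBR3 with 1.05, beside 8.04% of all probes under that fit. In the fit of those days alone, both passed at an adjusted p under 0.05, beside 16.1% of all probes. With the scan session as a block in that fit, neither passed. All day 3 arrays were in session 2 and 6 of the 7 day 7 arrays in session 1.

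The wider pathway was described by 7 lists holding 100 further genes, of which 76 were on the array by that symbol and 64 were tested. At day 3, 11 of the 64 were called higher and 6 lower on at least 1 probe, at day 5 12 and 8, and at day 7 9 and 7. These are 26.6%, 31.2% and 25% of the 64 genes, where 16.7%, 19.1% and 12.3% of all tested gene symbols were called on at least 1 probe; the counts of single lists that follow are read beside the same shares. Taking the brightest probe of each gene, 23.4%, 23.4% and 20.3% were called at days 3, 5 and 7, where the same count over all tested gene symbols gave 13.6%, 15.3% and 9.8%. The lists were chosen with results of these data known, so the shares are a description only.

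Among genes of ligand release, 5 of 14 were tested. LTBP1, which binds latent TGF-beta, changed by 2.01 ± 0.33 at day 3 (limma adjusted p = 0.00111) and by -0.14 ± 0.25 at day 7. LRRC32 (GARP), which displays latent TGF-beta on platelets and regulatory T cells, was well above background on 4 of 4 day 3 arrays and on 0 of 7 before irradiation, at least 2.36-fold higher (limma adjusted p = 0.000817). ITGAV, an integrin chain that frees the ligand, changed by 1.04 ± 0.25, 1.04 ± 0.16 and 1.10 ± 0.20 on days 3, 5 and 7, of which day 3 was not called (limma adjusted p = 0.00935). FURIN, which cleaves the precursor, changed by 1.38 ± 0.32, 1.21 ± 0.24 and 0.53 ± 0.25 on a probe well above background on 2 of 7 arrays before irradiation, and only day 5 was called (limma adjusted p = 0.0062 at day 3).

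Of the 4 activin and BMP type ligands tested, GDF15 was called, at day 3, with a change of 1.92 ± 0.39 (limma adjusted p = 0.00337). Of the 4 other receptors tested, ACVR1C was called at day 5, though its probe was well above background on 4 of 6 arrays there and on none before irradiation. Of 3 other SMADs tested, SMAD5, which serves BMP signals, was called at day 7, with 4 of 7 arrays well above background and none before irradiation.

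The regulators of receptors and SMADs moved in both directions, with 3 of 19 called higher and 3 lower at day 3, 3 and 4 at day 5, and 2 and 4 at day 7 (all symbols, 16.7%, 19.1% and 12.3% in either direction). PPM1A, a phosphatase of SMAD2 and SMAD3, fell on both probes on every day, by 2.09 to 2.58 on the log2 scale. NEDD4L, a ubiquitin ligase for SMAD2 and SMAD3, fell by 1.79, 2.03 and 1.58 at days 3, 5 and 7 on its brighter probe, while its other probe changed by -2.44, -1.55 and -1.05 and was called at day 3 alone. USP15, a deubiquitinase of receptors and SMADs, was called lower at days 5 and 7, with falls between 0.62 and 0.88 over its called probes. SMURF1, a ubiquitin ligase that acts with SMAD7, was higher at days 3 and 5 by 0.71 ± 0.13 and 0.55 ± 0.11. FKBP1A, which binds the type I receptor, was higher at days 3 and 7, by 1.0 ± 0.18 and 1.07 ± 0.19. MTMR4, a phosphatase that acts on SMADs, was called higher on at least 1 probe on each day, and XIAP at day 5 alone.

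The nuclear partners of SMADs were called higher for 2, 3 and 2 of 17 tested genes at days 3, 5 and 7, and lower for 3, 4 and 3 (all symbols, 16.7%, 19.1% and 12.3% in either direction). E2F5, TFDP2 and the histone deacetylase HDAC1 were among the lower genes. The TFDP2 probes changed by -4.26 and -3.88 at day 3, by -6.35 and -5.68 at day 5 and by -5.07 and -4.95 at day 7. E2F5 was well above background on 7 of 7 pre-irradiation arrays and on 0 of 4 at day 3, at least 4.99-fold lower. The coactivators EP300, at days 3 and 5, and CREBBP, at day 5, were higher, as were the corepressor NCOR1 at days 5 and 7, WWTR1 (TAZ) at day 3 and TFDP1 at day 7, whose called probes were well above background on 0 of 7 arrays before irradiation, while E2F4 at day 5 and PARP1 at day 3 were lower.

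Of 13 tested transcripts that TGF-beta is known to raise, 3 were called higher and 1 lower on each day. CDKN1A, a cell cycle inhibitor that is also a p53 target, changed by 3.40 ± 0.18, 2.01 ± 0.19 and 1.01 ± 0.18 at days 3, 5 and 7. CDKN2B, an inhibitor of CDK4 and CDK6, changed by 1.74 ± 0.31, 1.57 ± 0.25 and 1.53 ± 0.27. PMEPA1, which is also on the list of regulators, is a target that in turn restrains the receptor-activated SMADs, and it fell by 2.62, 2.27 and 1.39 on its brighter probe. Its other probe changed by -1.85, -1.29 and -0.32, and day 7 was not called there (limma adjusted p = 0.417). For day 7 against day 3, 1 of the 64 pathway genes was called higher and 5 lower. These are 9.38% of the 64, where 1.94% of all tested gene symbols were called. TFDP1 was the higher one, and CDKN1A, LTBP1, WWTR1 and PPP1R15A were among the lower.

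Markers of several blood cell types moved between the groups. The mean level of 10 erythroid markers lay between 12.19 and 13.66 before irradiation, and on days 3, 5 and 7 it lay between 9.64 and 11.03, 7.55 and 8.62, and 7.31 and 11.51, with 8, 9 and 9 genes called lower. The mean of 9 B cell markers ran from 10.96 to 11.28 before irradiation and from 7.32 to 8.62 over all later arrays, with 9, 9 and 8 genes called lower; PAX5, 1 of its defining genes, was well above background on no array. The mean of 9 monocyte markers lay between 10.95 and 11.64 before irradiation, and on days 3, 5 and 7 it lay between 12.17 and 12.62, 11.75 and 12.43, and 11.30 and 12.47, with 3, 3 and 1 called higher. None of the 10 NK cell markers was called on any day, and their mean lay between 11.07 and 12.03 at day 3 and between 11.21 and 11.72 at day 5. Of 11 T cell markers 1, IL7R, was called lower at days 3 and 5, when their mean lay between 10.71 and 11.71 and between 11.24 and 11.75. The mean of 10 neutrophil markers lay between 10.76 and 11.999 before irradiation, and between 11.53 and 12.80, 11.39 and 12.40, and 11.13 and 12.56 on days 3, 5 and 7. Of these 10 markers, CSF3R was called higher at days 3 and 5 and LCN2 at days 5 and 7, while ELANE was called lower at days 5 and 7. The mean of the 5 general leukocyte markers lay between 14.91 and 15.30 before irradiation. On days 3, 5 and 7 it lay between 15.29 and 15.88, 15.26 and 15.44, and 14.87 and 15.22. Of these 5 markers 1, CD53, was called higher, at day 5. The part of these changes in the member values was not tested.

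**Figure D4:**
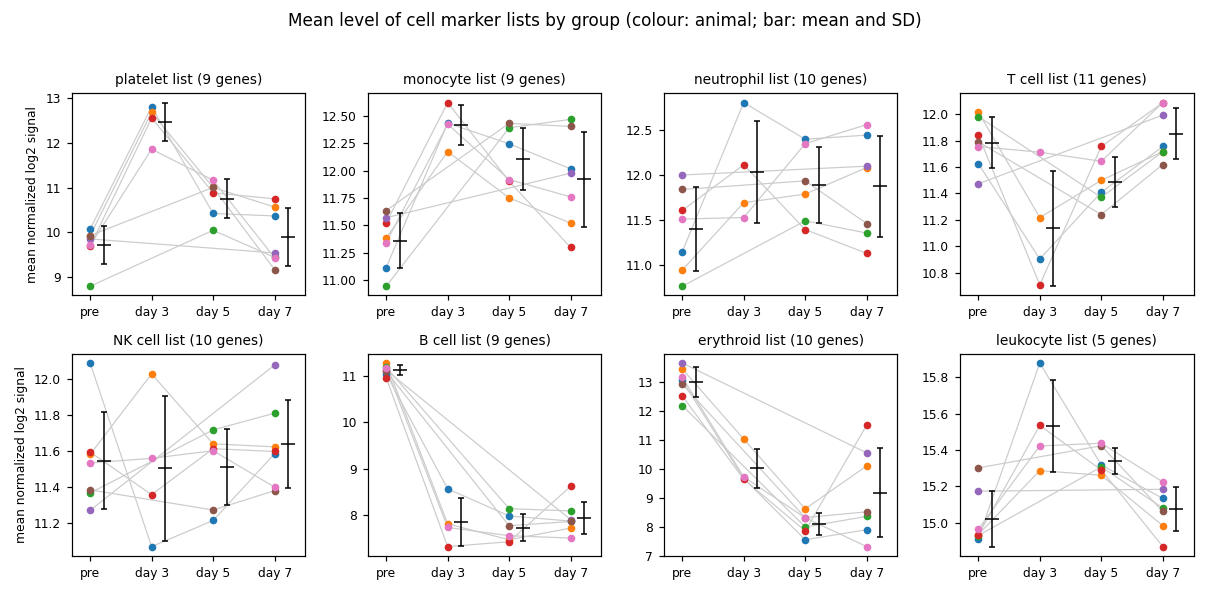
Mean normalized log2 signal (vertical axis, a separate scale in each panel) of the brightest probes of each cell marker list in the 4 groups of arrays; each colour is 1 animal, grey lines join its arrays, and black bars give mean and SD. The platelet list is highest at day 3 (11.86 to 12.81) and the erythroid and B cell lists are lower on all days after irradiation.

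Other genes whose level over the 24 arrays ran closest to each member were found by the root mean square difference of centred log2 signals, among tested probes with a gene symbol and at least 50% of the member probe's SD. For the downstream TGFB1 probe these were ERCC1, MPV17 and FXYD5 (0.25 to 0.27), and for TGFBR1 NIPBL, PPP1R12C and MDM4 (0.22 to 0.26). For TGFBR2 they were RGL2, STX16 and JAG1 (0.31 to 0.34), and for TGFBR3 STRN3, BIRC6 and AHCYL1 (0.32 to 0.34). The upstream SMAD2 probe ran closest to CUL3, TIMMDC1 and SSR1 (0.14 to 0.15), SMAD3 to API5, ATMIN and OLA1 (0.15 to 0.20), and SMAD4 to PPP2R2A, YME1L1 and CUL3 (0.13 to 0.17). SKI ran closest to GIGYF2, SMC1A and USP10 (0.25 to 0.38), and SKIL to EPC2 and PRR14L (both 0.30). The SD of the member probes over the arrays ran from 0.17 for SMAD2 to 0.69 for TGFBR2, and all these genes share the same arrays and scaling. For SMAD2, and for SMAD4 with an SD of 0.20, the differences were not far below the SD. Their small differences thus reflect probes that varied little more than a shared pattern.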

How the data were processed

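Whole blood RNA from 7 animals was hybridised to 24 single-colour Agilent rhesus arrays. The labels name that array and the file headers give rhesus coordinates, while the study's methods name a human array. The intensity values, gProcessedSignal, were deposited by the authors as scanner output, background-subtracted by Agilent Feature Extraction but not scaled between arrays. The submitters' notes name version 10.7 of that software and the file headers 12.0.2.2. The deposited log2 table of the authors equals the log2 processed signal plus a constant per array, was filtered by them, and holds 11 of the 19 probes; it served as an alternative.

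Each array's log2 processed signal was scaled to the median array, with control spots and outlier spots left out and spots of 1 probe averaged. A probe was tested where at least 4 of the 24 arrays had it well above background (27133 of 43603), in R 4.3.3 with limma 3.58.1 (lmFit, eBayes) with 1 fit for each pair of groups, and was called at a Benjamini-Hochberg adjusted p under 0.005. Arrays had 48.3% to 61.2% of probes well above background, and precision is limited by the number of arrays. Replicates are arrays of different animals. "At least" folds set the brighter group's mean against the dimmer group's mean of, per array, the higher of its own signal and a floor, the dimmest probe still well above background there. The text names every probe of the 10 genes, pathway genes with a called probe, and for each member the 3 genes closest to its brightest probe, except for 1 pathway gene and 1 gene close to SKIL that are not reported here. The members, lists and tests were chosen with earlier results of these data known. Within-array differences of probe pairs were tested by exact permutation of the arrays.

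Replicate numbers mark animals. Deviations from the group mean correlated at 0.133 to 0.409 between arrays of 1 animal for day 3 against pre-irradiation, 0.171 to 0.458 for day 5 and 0.129 to 0.440 for day 7, with medians of -0.0536, -0.0679 and -0.0523 between animals. The alternatives were other scalings, normexp background correction, other filters, all groups in 1 fit, blocks for animal, scan session and slide, each session alone, and leaving out each animal. The test was checked on simulated data. The scanner files named 10 of 10 member symbols as the RefSeq gene table does.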

Additional observations from a re-analysis of the deposited data

Results flagged for a closer look

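In 6 of 75 groups of arrays examined, 1 array stood apart from the others of its group by Dixon's criterion, which chance meets in about 1 in 20 groups. The SMAD7 probe read 7.22 in the pre-irradiation array of animal 4, with the next highest at 3.55. The upstream TGFBR2 probe A_01_P1759366 read 5.71 at day 7 in animal 4, below the next lowest at 6.57. The middle SMAD2 probe A_01_P1674226 read 10.59 at day 5 in animal 7, above the next at 10.34. SMAD4 read 8.66 before irradiation in animal 5, below the next lowest at 9.01. The tested SKIL probe A_01_P1802041 read 4.88 before irradiation in animal 1, below the next lowest at 5.79. The SKIL probe A_01_P008283, well above background on no array, read 3.91 before irradiation in animal 7, above the next at 3.57.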

How the results depend on the processing

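The counts of called member probes, 1 at day 3, 4 at day 5 and 2 at day 7, were 0, 0 and 0 with normexp background correction. At an adjusted p under 0.05 they were 7, 9 and 5, beside 35.8%, 35.5% and 27.7% of all tested probes. With the animal as a replicate block the counts were 0, 3 and 2. With the scan session as a block, within scan session 2 alone and with the slide as a fixed block, they were 0 at day 3 and 0 at day 5. At day 7 the count was 1 within scan session 1, 1 with the slide as a fixed block and 1 with no filter on dim probes. It was 3 with all groups in 1 fit, with the slide as a random block, with only probes well above background on all arrays, and in the authors' values, the gain being the downstream SMAD2 probe A_01_P001362. At day 5 it was 5 with quantile normalization, which added SKI, and 5 in the authors' values, which added the downstream TGFBR2 probe A_01_P1759361. It was 3 with all groups in 1 fit, which lost the SMAD3 call, and 3 with only probes well above background on all arrays, which left the SMAD3 and SKIL probes untested and added the same TGFBR2 probe. With no filter it was 4, losing the SMAD3 call and adding the SKIL probe A_01_P1689366. Leaving out 1 animal in turn gave counts of 1 throughout for day 3, from 1 to 4 for day 5 and from 0 to 2 for day 7. For day 7 against day 3 the count of 0 became 2 with all groups in 1 fit and 2 at an adjusted p under 0.05. With the scan session as a block it was 0 at either threshold. Among the 48 results of single probes against pre-irradiation, alternatives kept direction and side of the threshold 827 times, gained a call 8 times, lost one 50 times and turned the direction 45 times, 1 of them for a called result. That one was the fall of the downstream SMAD3 probe A_01_P1809536 at day 5, which became 0.13 with normexp (limma adjusted p = 0.819); its uncalled fall at day 3 became 0.14 when outlier spots were kept. With normexp, day 5 became 0.063 for SKI, -0.50 for TGFB1 A_01_P000702, -0.027 for TGFBR1 A_01_P007350, -0.039 for TGFBR3 A_01_P1789826 and -0.40 for SMAD2 A_01_P1707461. Also with normexp, day 3 became -0.0047 for TGFBR1 A_01_P007350, and day 7 became 0.13 for TGFBR1 A_01_P1678626 and 0.024 for SMAD2 A_01_P1707461. With the session as a block, and equally within session 2, day 3 became 0.68 for TGFBR3 A_01_P1789826, 0.14 for SMAD2 A_01_P1674226 and 0.12 for SMAD4, and day 5 became 0.17 for SMAD2 A_01_P1674226 and 0.25 for SMAD4. With the slide as a fixed block, day 3 became 0.80 for TGFBR3 A_01_P1789826, 0.11 for SMAD2 A_01_P1674226, 0.028 for SMAD4 and -0.028 for TGFBR1 A_01_P1678626, while day 5 became -0.28 for TGFB1 A_01_P000702, -0.38 for TGFBR3 A_01_P1789826 and -0.064 for SMAD2 A_01_P1707461. Within session 1, day 7 became -0.0093 for TGFB1 A_01_P000702 and 0.0035 for TGFBR1 A_01_P1678626, and quantile normalization gave 0.013 for SMAD2 A_01_P1674226 at day 5. Leaving out 1 animal turned the direction of these uncalled changes: -0.0093 to 0.16 for TGFB1 A_01_P000702 at day 7, -0.062 to 0.25 for TGFBR1 A_01_P007350 at day 3, -0.11 to 0.31 and -0.17 to 0.10 for TGFBR1 A_01_P1678626 at days 3 and 7, -0.27 to 0.13 for TGFBR3 A_01_P1789826 at day 3, and -0.12 to 0.014 and -0.013 to 0.055 for SMAD2 A_01_P1674226 and A_01_P1707461 at day 5. The cause of these differences was not tested, beyond the smaller number of arrays within a session or without an animal. Over the whole array normexp called 139 probes at day 3 and 239 at day 5, against 3657 and 4543. The median change of all probes moved from near 0 on days 3, 5 and 7 to -0.25, -0.23 and -0.25 with no filter, and to 0.16 with normexp at day 5 and 0.10 in the authors' values at day 3. Scan session 1 holds no day 3 or day 5 array, so no fit within it was possible for those days. For day 7 the fit within it is the same as the fit without animal 5, and it was counted under both settings. Signal near background limits SMAD7, downstream SMAD3 and the other SKIL probes.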
